A study of Mus musculus with 79 samples.

Results

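Semaphorins are guidance proteins that are secreted or held in the cell membrane, and plexins are their signalling receptors. Class 3 semaphorins are secreted and mostly act through a neuropilin (Nrp1 or Nrp2) joined to a class A plexin, whereas class 4 to 7 members bind plexins without a neuropilin. The family was described as axon repellents, and in injured nerve it is expressed by Schwann cells, fibroblasts, endothelium and macrophages. The gene set examined here was every gene of the deposited tables whose symbol names a semaphorin of class 3 to 7 or a plexin, together with both neuropilins. It held 31 of 23361 genes, with 20 semaphorins, 9 plexins and 2 neuropilins. The rule goes by name and uses no measured value, although the family was taken up with earlier results of these data known.

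RNA was sequenced from mice in which a freshly cut common peroneal nerve branch was grafted onto the distal tibial stump, with the ends held in a silicone conduit. For delayed repair the tibial branch had been transected 8 weeks earlier and sutured to the quadriceps muscle, and for immediate repair the site was only opened and closed 8 weeks earlier, so both groups carried the earlier incision and the same graft. The sorted cells came from mice of both sexes with green fluorescent protein (GFP) driven by the human S100β promoter, and the age of the animals was not given in the sources used here. One bridge was used for each animal, without pooling, and 79 libraries came from 32 animals. Macrophages, sorted as F4/80+ CD14+ CD16/32+ CD11b+ cells, gave 9 delayed and 8 immediate libraries at day 5 and 7 and 8 at day 14. The Schwann cell (SC) gate, which took GFP+ cells negative for those 4 proteins and for lineage markers, gave 9 and 7 libraries at day 5 and 7 and 8 at day 14. Both gates also left out cells in a dump channel, stained to remove granulocytes, lymphocytes, fibroblasts, endothelium and red blood cells. The distal stump was collected at day 5 only, with 9 delayed and 7 immediate libraries. Their tissue label reads bridge, as for all samples, and their identity as stump rests on the cell type label, the titles and the study's methods.

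Totals were 3898778 to 9212710 counts for the stump and 11614940 to 30796825 for the sorted cells, and a level is given in CPM, the count scaled to a common library total, after normalisation by the trimmed mean of M values (TMM). The macrophage libraries matched their label, with Csf1r at 1223 ± 251 CPM at day 5 (SD, n = 17). The SC fraction did not match its label cleanly. Sox10, the transcription factor that defines the Schwann lineage, was at 41.2 ± 43.2 CPM at day 5 (SD, n = 16) and had no count in 1 delayed library (replicate 4), while the dendritic cell genes Ccr7 and Flt3 were at 7619.8 ± 2358 and 666 ± 291 CPM (SD, n = 16). Dendritic markers summed to between 7624 and 24592 CPM at day 5, compared with at most 112 CPM in macrophages. These libraries are therefore called the SC fraction, and a level in them is that of a mixture.

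Levels can be compared between genes only per length, so CPM were divided by the kilobases of merged exons of protein-coding transcripts (RPKM). In immediate stumps the semaphorins with the highest mean level per length were Sema3b (49.2 ± 15.8 RPKM), Sema7a (37.7 ± 8.51) and Sema4c (21.9 ± 7.06, SD, n = 7). In delayed stumps they were Sema7a (30.6 ± 10.4 RPKM), Sema4d (26 ± 2.16) and Sema4c (14.6 ± 3.14, SD, n = 9), with Sema3b at 7.73 ± 3.27 RPKM. The order of the ligands thus differed between the repair groups, and that of the leading receptors did not. Among receptors Nrp1 came first (122 ± 22 RPKM over both groups), followed by Plxnb2 (77 ± 15.4) and Plxnd1 (52.9 ± 12.7, SD, n = 16). All 31 members had a median of at least 1 CPM there.

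Macrophages held a much shorter list. Only 13 members had a median of at least 1 CPM, and among semaphorins Sema4d stood first by a wide margin (51.6 ± 16.5 RPKM, SD, n = 32), followed by Sema4a (12.9 ± 4.36) and Sema6b (2.31 ± 0.811). The lowest library for Sema4d (24.3 RPKM) was above the highest library for Sema4a (21.8 RPKM). The macrophage receptors were Nrp1 (57.1 ± 18.6 RPKM), Nrp2 (28.6 ± 10.1) and Plxnb2 (26.2 ± 6.24, SD, n = 32), and the last pair differed by less than the spread between animals.

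In the SC fraction Sema4a had the highest mean level per length of the semaphorins in each of the 4 groups of libraries (81.4 ± 33.5 RPKM over all, SD, n = 31), and the ligands after it varied with group. Sema7a was next at day 5, at 78.7 ± 51.7 RPKM after immediate (SD, n = 7) and 47.5 ± 30 RPKM after delayed repair (SD, n = 9), followed by Sema4c (13.7 ± 6.74) and Sema4d (32.8 ± 14.1), respectively. At day 14 Sema7a and Sema3b lay close together, at 21.9 ± 13.1 and 18.3 ± 6.75 RPKM after immediate (SD, n = 8) and 21.6 ± 9.62 and 23.1 ± 11.5 RPKM after delayed repair (SD, n = 7). The leading receptors were Plxnc1 (39.1 ± 16.7 RPKM) and Nrp2 (24.1 ± 13.8, SD, n = 31) in each group, followed by Plxnd1 at day 5 and Plxnb2 at day 14. In this fraction 25 members had a median of at least 1 CPM. Sema3a, the founding repellent of the family, and Sema5b were under that level in both sorted cell types, and neither passed the minimum for testing in any comparison. The libraries of stump and sorted cells were made differently, so no level was compared between them by a test.

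**Figure D1:**
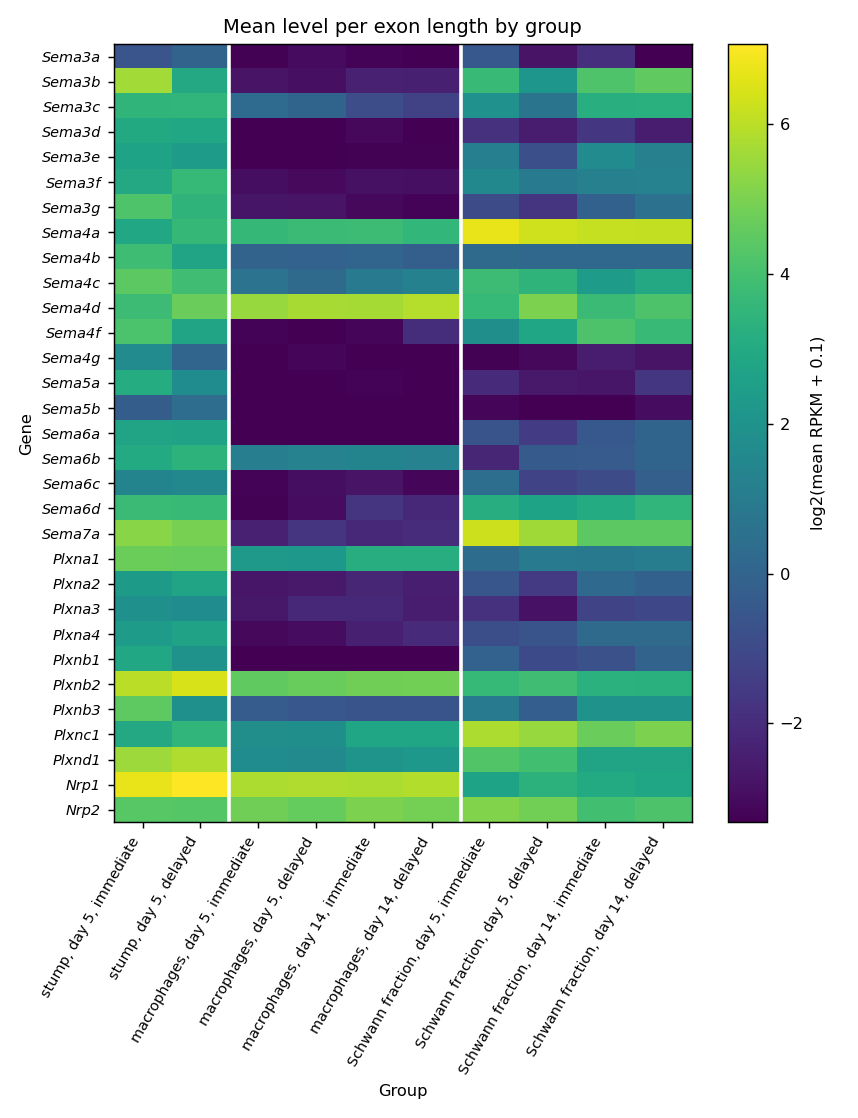
Mean level per exon length of the 31 genes (rows) in each of the 10 groups (columns), as log2(mean RPKM + 0.1), with white lines between stump, macrophages and SC fraction. Most semaphorins are dark in the 4 macrophage columns, where Sema4d is the brightest of them.

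Whether the delay altered these genes in the distal stump was addressed first, since this tissue had been denervated for 8 weeks before delayed repair. Delayed stumps had far less Sema3b, Plxnb3, Sema5a, Sema4g and Sema4b than immediate stumps and more Sema4d, Sema3f and Sema4a. Of 31 members, 29 passed the minimum (at least 5 CPM in at least 6 libraries), and 16 of these were called at an adjusted p under 0.05 in edgeR's quasi-likelihood test, compared with 26.3% of all 12229 genes tested. Delayed repair was higher for 7 (12.8% of all genes tested) and lower for 9 (13.5%). The median log2 difference was -0.08 over the 29 members and 0.02 over all genes tested. The animals of both groups did not overlap for 5 members, Sema3b, Sema4b, Sema4d, Plxnb3 and Sema5a, and this held for 4.69% of all genes tested.

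The class 3 semaphorins were split. Sema3b, a secreted ligand that binds neuropilins, was at 109, 184 and 259 CPM (lowest, median and highest animal) after immediate repair and 15.4, 27.1 and 57.7 CPM after delayed repair, so that every delayed stump lay below every immediate one. Its log2 difference was -2.68 ± 0.25 (SE, edgeR adjusted p = 1.28e-06). Sema3g, a ligand known from endothelium, fell by 0.79 on the log2 scale (edgeR adjusted p = 0.0107). Sema3f, the classical Nrp2 ligand, moved the other way, from 23.3, 26.9 and 32 CPM to 30.2, 45.9 and 55.3 CPM. The ranges met only at their edges, and the log2 difference was 0.68 ± 0.14 (SE, edgeR adjusted p = 0.00168). Sema3c, Sema3d and Sema3e were not called, with log2 differences of 0.04, -0.12 and -0.35. Their ranges overlapped, that of Sema3e after delayed repair being 11.8 to 100.5 CPM.

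All 6 class 4 semaphorins, which are membrane proteins that bind B- and D-type plexins, were called, 2 higher and 4 lower. Sema4d (CD100), a ligand of Plxnb1 and Plxnb2 that also binds CD72 on immune cells, was at 44.1, 72.3 and 78.1 CPM after immediate repair and 112, 120.0 and 144 CPM after delayed repair. All 9 delayed animals were above all 7 immediate ones, with a log2 difference of 0.90 ± 0.11 (SE, edgeR adjusted p = 1.50e-05). Sema4a rose from 17.4, 24.1 and 38.6 to 27.2, 43.1 and 52.4 CPM (edgeR adjusted p = 0.0055), and all 9 delayed animals were above the immediate mean. Sema4b went down from 45.4, 62 and 69 to 21.4, 26.1 and 34 CPM without overlap (log2 difference -1.07 ± 0.12, SE, edgeR adjusted p = 1.38e-05). Sema4g was low in all stumps and lower after delay, at 8.94, 11 and 26.9 and then 1.54, 3.74 and 9.99 CPM (edgeR adjusted p = 8.92e-04). Sema4f, which is known from contacts between Schwann cells and axons, had a log2 difference of -1.37 ± 0.36 and Sema4c, a Plxnb2 ligand, one of -0.58 ± 0.18 (SE, edgeR adjusted p = 0.00962 and 0.0226). The Sema4c call was lost without immediate replicate 1 (edgeR adjusted p = 0.0514) and in limma-voom (adjusted p = 0.0521).

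Sema5a and Plxnb3, a known ligand and receptor pair, were both lower in delayed stumps. Sema5a was at 65.4, 90.7 and 123 CPM after immediate and 20.1, 31.3 and 62.1 CPM after delayed repair. Plxnb3 was at 82.9, 140.4 and 183 CPM and then 5.62, 19.3 and 59.6 CPM. Neither gene overlapped between the groups, and the log2 differences were -1.40 ± 0.21 and -2.65 ± 0.35 (SE, edgeR adjusted p = 1.28e-04 and 4.91e-05). Sema5a lies at chr15:32244810-32696341 and Plxnb3 at chrX:73757090-73772514 (GRCm38, GENCODE vM21), and no other annotated exon overlaps theirs. None of the class 6 semaphorins (Sema6a, Sema6b, Sema6c and Sema6d, membrane ligands of A-type plexins) was called, with log2 differences from -0.10 to 0.36. Sema7a, a lipid-anchored ligand of Plxnc1 and integrin beta 1, was not called either (-0.31 ± 0.20, SE).

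**Figure D2:**
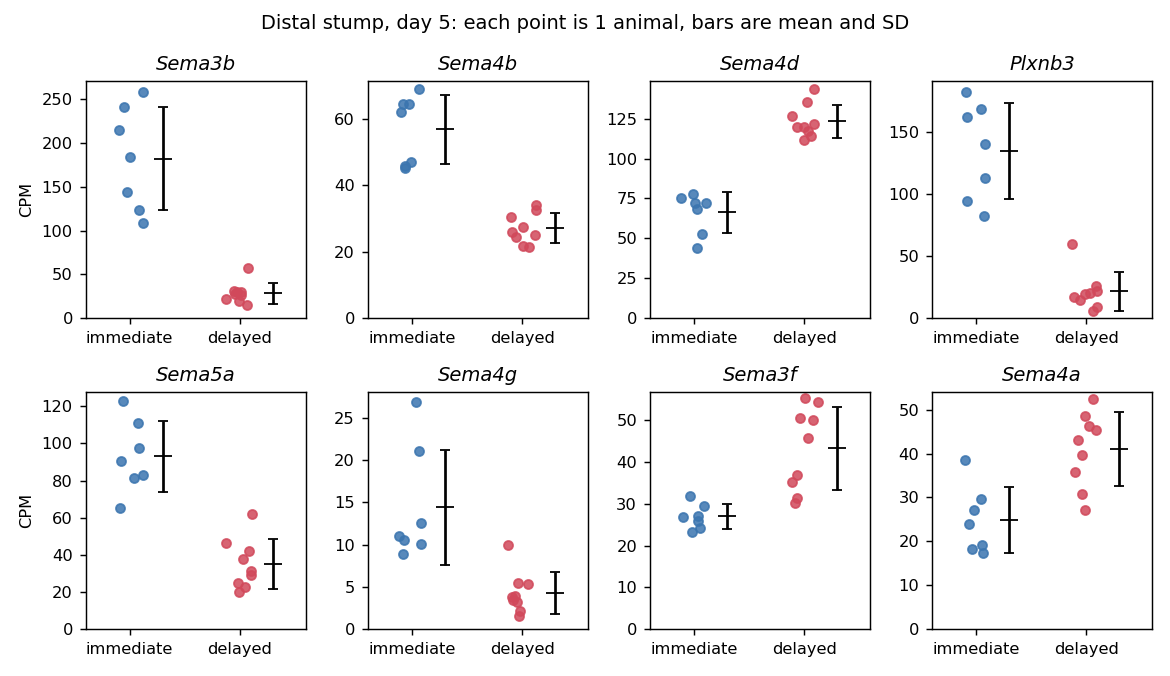
CPM in each distal stump library at day 5 for the 8 called members with the smallest p, after immediate (blue, n = 7) and delayed repair (red, n = 9), with mean and SD in black. The groups are apart for Sema3b, Sema4b, Sema4d, Plxnb3 and Sema5a and overlap for Sema4g, Sema3f and Sema4a.

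Of the receptors, all 3 B-type plexins were called, and not in one direction. Plxnb1, like Plxnb3, was lower (-0.97 ± 0.29, SE, edgeR adjusted p = 0.0201), whereas Plxnb2, the most abundant plexin per length in the stump, was higher at 441, 570.3 and 671 CPM against 366, 382 and 553 CPM. Its log2 difference was 0.43 ± 0.10 (SE, edgeR adjusted p = 0.00608). Plxnc1, the Sema7a receptor, was higher by 0.57 ± 0.14, Plxna2 by 0.44 ± 0.11 and Nrp1, which also binds VEGF, by 0.36 ± 0.10 on the log2 scale (SE, edgeR adjusted p = 0.00761, 0.00819 and 0.0161). Nrp2 was at almost equal levels, 213 ± 19.3 CPM after immediate and 209.9 ± 22.2 CPM after delayed repair (SD, n = 7 and 9). Plxna1, Plxna3, Plxna4 and Plxnd1, the receptor for Sema3e, were not called.

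**Figure D3:**
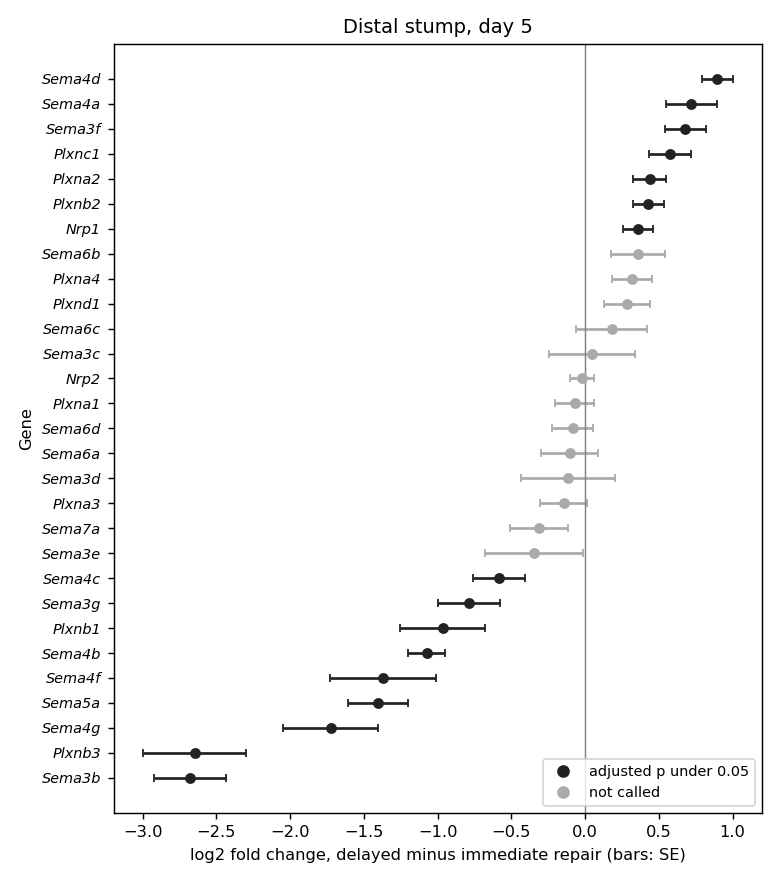
Log2 fold change, delayed minus immediate repair, of the 29 members tested in the distal stump at day 5, with standard errors. Black points are the 16 called members, from Sema3b at -2.68 to Sema4d at 0.90, and grey points were not called.

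Cell type markers moved with these genes in the bulk tissue, in which fewer cells of a type and less RNA per cell cannot be told apart. All 8 Schwann cell markers were called lower after delay (median log2 difference -2.67), and their summed level was 1362 to 3176 (median 2355) CPM after immediate and 100.0 to 818 (median 275) CPM after delayed repair. Of 10 macrophage markers 2 were called higher, with sums of 1559 to 5859.9 (median 2770.4) and 3547 to 6025 (median 4839) CPM. Endothelial markers, with 7 of 9 called higher, summed to 802 to 1149.5 (median 996) and 1275 to 1810.0 (median 1582) CPM, and mural cell markers, with 5 of 8 called higher and 1 lower, to 710.2 to 1008 (median 878) and 1101 to 1452 (median 1198) CPM. Of 8 dendritic cell markers 3 were called higher, with sums of 182 to 268 (median 216) and 213 to 321 (median 286) CPM. T cell sums had medians of 4.56 and 17.2 CPM, B cell sums 5.2 and 11.2 CPM, and neuron and axon sums 39.1 and 16.1 CPM, with overlapping ranges. Neutrophil sums had medians of 40.7 and 80.5 CPM and skeletal muscle sums 26.3 and 59 CPM, also with overlap. None of 7 fibroblast markers was called. The part of these shifts in the semaphorin and plexin differences was not tested. Delayed replicate 5 carried 9202 CPM of skeletal muscle markers, and without it 16 members were again called, 7 higher and 9 lower.

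Coreceptors and effectors of the pathway were examined in a list of 61 partners, 60 of them in the tables. In the stump 22 of 56 tested were called, compared with 26.3% of all genes tested, 11 higher (12.8%) and 11 lower (13.5%). Met, a receptor kinase that associates with B-type plexins, averaged 336 ± 85 CPM after immediate and 61.6 ± 23.9 CPM after delayed repair (SD, n = 7 and 9, log2 difference -2.45 ± 0.22, SE, edgeR adjusted p = 1.01e-06). Nrcam and Chl1, cell adhesion molecules that join neuropilin complexes, differed by -3.30 ± 0.37 and -1.17 ± 0.20 on the log2 scale (SE). Mras and Rnd3, small GTPases of the plexin pathway, were also lower (-1.24 ± 0.15 and -0.40 ± 0.08, SE). These 5 were the partners with the smallest p.

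Promoter sequences were read from RefSeq (GRCm38.p6, from 250 bases before to 50 after the start), in which 26 of the 31 members had an entry. Both strands were searched for ACAAAG, a core bound by Sox factors, GAGGAA, a core bound by PU.1 and related Ets factors, and TGANTCA, the AP-1 site. The first occurred in 8 of the 37 entries of members and in 18.7% of all 32851 promoters, the second in 12 and 28.3%, and the third in 3 and 7.81%. The windows of Plxnb3 and Sema5a are shown because this pair was lower in delayed stumps, and that of Plxnc1 because it changed with time in macrophages. Matches to these motifs are in capitals.
Plxnb3, chrX:73756853-73757152, plus strand: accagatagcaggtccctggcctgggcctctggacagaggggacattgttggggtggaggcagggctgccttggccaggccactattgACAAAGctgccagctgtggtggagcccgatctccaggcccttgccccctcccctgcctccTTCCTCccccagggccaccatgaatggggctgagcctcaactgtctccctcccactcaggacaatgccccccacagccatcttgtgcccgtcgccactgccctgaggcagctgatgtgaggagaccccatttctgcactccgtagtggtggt
Sema5a, chr15:32244563-32244862, plus strand: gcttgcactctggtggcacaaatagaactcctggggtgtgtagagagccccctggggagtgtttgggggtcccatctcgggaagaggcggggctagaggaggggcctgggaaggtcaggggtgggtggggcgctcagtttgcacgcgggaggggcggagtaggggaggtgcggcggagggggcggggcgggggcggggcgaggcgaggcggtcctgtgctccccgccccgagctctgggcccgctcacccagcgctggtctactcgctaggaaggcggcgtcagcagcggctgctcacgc
Plxnc1, chr10:94944796-94945095, minus strand: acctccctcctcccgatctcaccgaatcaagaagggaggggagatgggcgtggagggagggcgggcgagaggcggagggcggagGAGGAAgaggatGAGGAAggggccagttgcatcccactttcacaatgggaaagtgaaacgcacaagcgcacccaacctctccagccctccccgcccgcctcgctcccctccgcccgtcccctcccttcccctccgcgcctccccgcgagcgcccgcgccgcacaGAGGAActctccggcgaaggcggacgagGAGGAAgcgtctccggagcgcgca
The Plxnb3 window held 1 match to ACAAAG and 1 to GAGGAA, the Sema5a window none, and the Plxnc1 window 4 to GAGGAA. A match describes the letters and not a bound site.

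The sorted cells addressed which cells carried each ligand and receptor. Sema3b, Sema4a, Sema4f, Sema6d, Sema7a and Plxnc1 were higher in the SC fraction, and Nrp1, Plxna1, Plxnb2 and Sema4d were higher in macrophages. At day 5, 21 of the 31 members passed the minimum and 17 were called, compared with 65.3% of all 10087 genes tested. The SC fraction was higher for 12 (35.6% of all genes tested) and macrophages for 5 (29.7%). At day 14 all 22 members that passed were called, compared with 64.7% of 10596 genes, 16 higher in the SC fraction (37.1%) and 6 in macrophages (27.6%). A member that is near 0 in macrophages passed the minimum only through the SC fraction, so these counts are no evidence about the family as a whole. Both kinds of cell came from the same animals, but the SEs and edgeR values given here come from a fit without the animal. With the animal as a block the same numbers were called.

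Sema7a, Sema6d and Sema4f were ligands of the SC fraction. Sema7a was at 41.4, 151 and 574 CPM (lowest, median and highest library) in the SC fraction at day 5 and at 0, 0.412 and 1.4 CPM in macrophages, and at 17.5, 61.8 and 136 against 0, 0.246 and 2.14 CPM at day 14. Sema6d was at 9.25, 48.3 and 136 CPM in the SC fraction at day 5, with 13 of 17 macrophage libraries at 0 and the highest at 1.61 CPM. Sema4f was at 0.231, 22.4 and 54.6 CPM at day 5 against a highest macrophage library of 0.145 CPM, and at 23.4, 53.1 and 175 CPM at day 14. These 3 ligands did not overlap between cell types on either day and were called on both (edgeR adjusted p from 6.72e-17 to 4.94e-11). Since macrophages were near 0 CPM for them, no fold is given. Cell types did not overlap for 8 of 21 members tested at day 5, compared with 15% of all genes tested. At day 14 this held for 12 of 22 members and 16.3% of all genes tested. Members near 0 CPM in macrophages passed the minimum only through the SC fraction, so these counts are no evidence about the family.

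Of the 7 class 3 ligands 4 were tested on each day, and 3 at day 5 (Sema3b, Sema3e and Sema3f) and 4 at day 14 were called higher in the SC fraction. This held for 35.6% and 37.1% of all genes tested. Those 3 averaged at most 0.338 CPM in macrophages on either day and passed the minimum only through the SC fraction. The counts are therefore no evidence about the class. Sema3b was at 0, 24 and 84.8 CPM in the SC fraction at day 5, with 2 of 16 libraries at 0. At day 14 it was at 33.3, 72.2 and 141 CPM there, and macrophages reached at most 1.28 and 1.2 CPM on these days. Sema3e, the ligand of Plxnd1, was at 0, 3.37 and 57.2 CPM at day 5 and 3.17, 13.3 and 56.1 CPM at day 14, when its macrophage libraries reached at most 0.109 CPM. Both were called on both days (edgeR adjusted p at most 1.03e-08). Sema3c, which had counts in every macrophage library, was not called at day 5 (1.20 ± 0.68 on the log2 scale, SE) and was higher at day 14 (4.66 ± 0.46, SE, edgeR adjusted p = 2.32e-10). The Plxnb1 gene, whose product binds Sema4d, had 1 count in 17 macrophage libraries at day 5 and none in 15 at day 14, which allows up to 0.19 CPM at 3 counts in the shallowest of these libraries. Its mean in the SC fraction at day 14 was 5.86 ± 5.39 CPM (SD, n = 15), at least 30.8-fold higher than that limit. Sema6a was at 0 in all 32 macrophage libraries and at 5.42 ± 6.25 CPM in the SC fraction at day 14 (SD, n = 15), at least 28.5-fold above the same limit. Sema3f and Plxna4 were higher in the SC fraction on both days and Plxna2 and Plxnb3 at day 14, when Plxnb3 averaged 3.35 CPM in macrophages and 23 ± 19.8 CPM in the SC fraction (edgeR adjusted p = 1.74e-05).

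Sema4a, Sema4c, Plxnc1 and Plxnd1 were found in both cell types and were higher in the SC fraction. Plxnc1 was at 10.9, 24.3 and 37.8 CPM in macrophages and 214, 320.4 and 607 CPM in the SC fraction at day 5, a log2 difference of 3.81 ± 0.17 (SE, edgeR adjusted p = 2.42e-19) and at day 14 it averaged 49.7 ± 15.6 and 211 ± 79.3 CPM (SD, n = 15 and 15). Sema4a, a ligand known from antigen-presenting cells, was at 25.4, 35.8 and 74.8 and 179, 259 and 624 CPM at day 5, with no overlap. The log2 difference was 2.83 ± 0.20 at day 5 and 2.48 ± 0.16 at day 14 (SE, edgeR adjusted p = 4.65e-14 and 3.33e-14). For Plxnd1 it was 2.42 ± 0.22 at day 5 and 0.66 ± 0.17 at day 14. Dendritic cell markers summed to 2999 CPM or more in every SC library and at most 151 CPM in any macrophage library, Schwann cell markers to at least 4.98 and at most 12.8 CPM, and fibroblast markers to as much as 12804 CPM in the SC fraction, although the dump channel was to remove fibroblasts. The part of each in these differences was not tested.

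Macrophages were higher for Nrp1, Plxna1, Plxnb2, Sema4d and Sema6b on both days and for Nrp2 at day 14. Nrp1 was at 98.8, 200.4 and 350.3 CPM in macrophages and 0.277, 24 and 97.8 CPM in the SC fraction at day 5, with no overlap and a log2 difference of -2.76 ± 0.38 (SE, edgeR adjusted p = 1.23e-07). At day 14 the difference was -2.93 ± 0.19. Plxna1, a signalling partner of Nrp1 and receptor for Sema6d, had log2 differences of -1.57 ± 0.23 and -2.24 ± 0.13 (SE, edgeR adjusted p = 2.62e-07 and 9.04e-16), and Plxnb2 of -0.81 ± 0.16 and -1.52 ± 0.22. For Sema4d they were -1.17 ± 0.32 and -1.82 ± 0.27 and for Sema6b -2.79 ± 0.76 and -1.60 ± 0.51 (SE). Nrp2 was not called at day 5 (0.27 ± 0.20, SE) and was lower in the SC fraction at day 14 (-0.89 ± 0.21, SE, edgeR adjusted p = 3.90e-04). At day 5 Plxnb3 and Sema4b, like Nrp2 and Sema3c, were tested and not called.

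**Figure D4:**
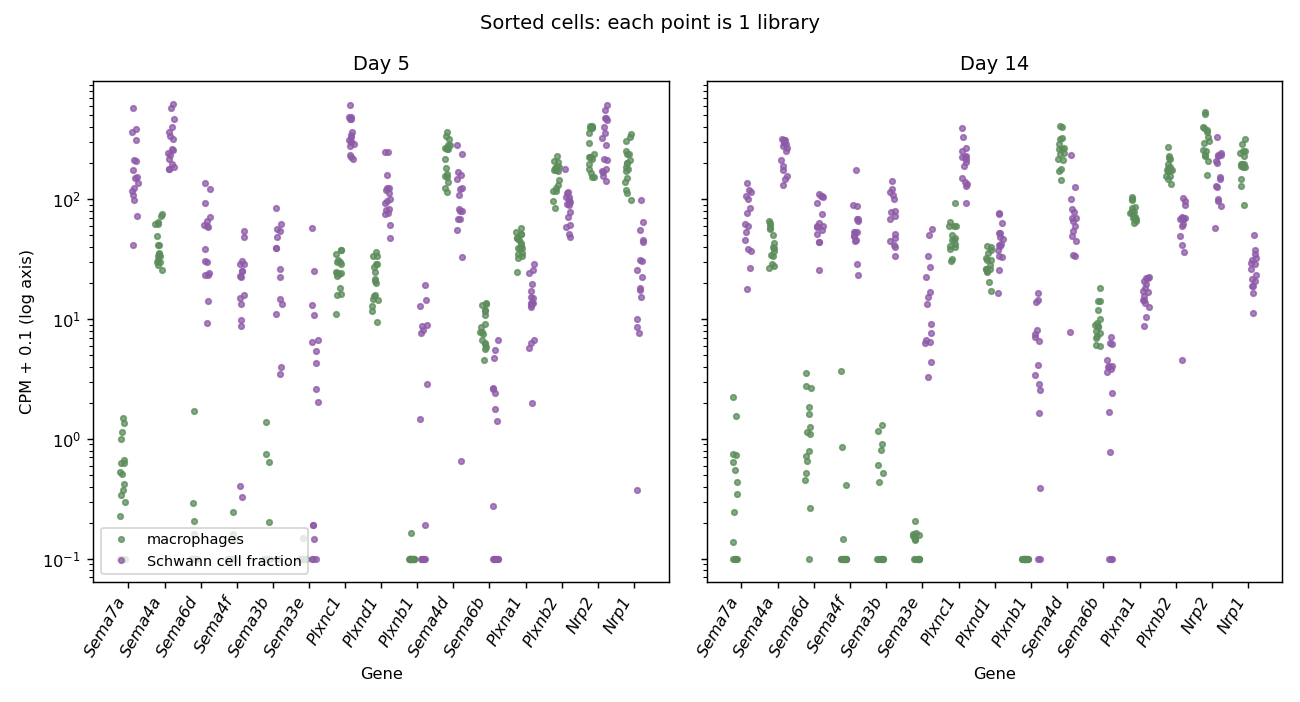
CPM + 0.1 on a log axis in every macrophage library (green, n = 17 and 15) and SC fraction library (purple, n = 16 and 15) at day 5 and 14 for 15 members. On both days Sema7a, Sema6d, Sema4f, Sema4a and Plxnc1 are apart in one direction and Nrp1 in the other.

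Among the partners, 29 of 47 tested were called between the cell types at day 5 and 39 of 51 at day 14, where 65.3% and 64.7% of all genes tested were called. Of these, 19 and 24 were higher in the SC fraction (35.6% and 37.1% of all genes tested). Fyn, a kinase in plexin-A signalling, was higher in the SC fraction by 2.98 ± 0.11 and 2.59 ± 0.12 on the log2 scale (SE). At day 5 L1cam, a Nrp1 coreceptor, was higher there by 3.22 ± 0.29 and Pak1, a kinase that acts on actin, by 2.11 ± 0.18 (SE). Chl1 and Mical3 at day 5 and Chl1 and Erbb2 at day 14 were also among the 5 with the smallest p and were higher in the SC fraction. Rap1b, a GTPase on which plexins act, and Trem2, which forms a receptor complex with Plxna1 in myeloid cells, were higher in macrophages at day 14. Rap1b averaged 1430.0 ± 107 CPM there and 705 ± 156 CPM in the SC fraction, and Trem2 368 ± 75.5 and 17.5 ± 13 CPM (SD, n = 15 and 15). All these were called by edgeR at adjusted p at most 9.20e-12.

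Setting the stump beside the sorted cells, the 7 members higher in delayed stumps held 3 that were higher in macrophages at day 5 (Nrp1, Plxnb2 and Sema4d), 3 higher in the SC fraction (Plxnc1, Sema3f and Sema4a) and 1 not tested. The 9 lower members held 4 higher in the SC fraction (Plxnb1, Sema3b, Sema4c and Sema4f), none higher in macrophages, 2 that were not called and 3 that were not tested. Of all 1565 genes called higher in delayed stumps 25.4% were higher in macrophages and 32.5% in the SC fraction at day 5, and of all 1656 called lower 16.9% and 33.8%. With so few members these counts are not read as particular to the family. Sema5a and Sema4g, lower in delayed stumps, were at medians of 0.165 and 0 CPM in the SC fraction at day 5. The bridge and the stump are different tissues of the graft, so this is a side by side count with no test.

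Within the sorted cells, repair timing gave no called difference for any member. In macrophages 10 members were tested on each day and none was called (0.0357% of all genes tested at day 5 and 0% at day 14), and none had an unadjusted p under 0.05 in edgeR. Sema4d had the smallest p at both days, with 115, 239 and 285 CPM after immediate and 154, 264 and 361 CPM after delayed repair at day 5. The log2 differences were 0.23 ± 0.23 at day 5 and 0.26 ± 0.20 at day 14 (SE, edgeR adjusted p = 0.975 and 1). Next came Nrp2 at day 5 (-0.21 ± 0.22) and Sema4a at day 14 (-0.23 ± 0.21, SE).

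In the SC fraction none of 20 members at day 5 and none of 21 at day 14 was called, as for all genes tested (0% on both days), with 1 and 0 members at an unadjusted p under 0.05 in edgeR. DESeq2 and limma-voom also called no member on either day in either cell type. The one was Sema4d, at 0.553, 67.7 and 107 CPM after immediate and 80, 147 and 281 CPM after delayed repair at day 5, where all 9 delayed libraries were above the immediate mean. Its log2 difference was 1.36 ± 0.56 (SE, unadjusted p = 0.0274, edgeR adjusted p = 0.913). Macrophage markers summed to 387 to 10305 (median 2958) CPM in these delayed libraries and 299.6 to 3955 (median 899) CPM in the immediate ones, and their part in the difference was not tested. Sema3b was at 13.2, 54.1 and 84.8 and 0, 11 and 47.9 CPM (log2 difference -1.59 ± 0.92, SE, edgeR adjusted p = 0.921), beside Schwann cell marker sums of 80.8 to 768 (median 402) and 4.98 to 317 (median 84.1) CPM. Fibroblast markers in these immediate and delayed libraries summed to 219 to 7322 (median 1483) and 15.3 to 2936 (median 291) CPM. The part of either list was not tested. Sema7a had the next smallest p at day 5 (-0.71 ± 0.40), and Sema4c and Sema6d those at day 14 (0.52 ± 0.30 and 0.45 ± 0.27, SE).

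Whether the effect of delay differed between days was tested by the interaction of repair and day, and no member was called in either cell type (0.0223% of all genes tested in macrophages and 0% in the SC fraction). DESeq2 and limma-voom called none. In macrophages no member had an unadjusted p under 0.05, and the smallest belonged to Sema4a (-0.41 ± 0.35, SE) and Sema4c (0.65 ± 0.65, SE). In the SC fraction 1 had, Sema4c, with a difference of 0.90 ± 0.39 on the log2 scale (SE, unadjusted p = 0.0291, edgeR adjusted p = 0.975). Sema3b followed at 1.91 ± 0.99 (SE).

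Time after repair changed 2 plexins in macrophages, in both repair groups. Plxna1 was at 24.4, 44.5 and 57.5 CPM at day 5 and 65.4, 73.5 and 105 CPM at day 14 after immediate repair, and at 32.1, 39 and 51.1 and 63.5, 77.5 and 97.4 CPM after delayed repair. The days did not overlap in either group, and it rose by 0.93 ± 0.15 and 0.95 ± 0.12 on the log2 scale (SE, edgeR adjusted p = 5.49e-04 and 1.26e-04). Plxnc1 was at 15.7, 24.1 and 37.7 and then 30.6, 53.3 and 64.6 CPM after immediate and 10.9, 24.6 and 37.8 and then 38.2, 41.8 and 92.1 CPM after delayed repair, a rise of 1.03 ± 0.20 and 0.96 ± 0.23 (SE, edgeR adjusted p = 0.00216 and 0.0171). After delayed repair 1 library, replicate 4, reached 92.1 CPM at day 14, and without it the rise was still called. These were 2 of 11 members tested after immediate repair, where 11.3% of all genes tested were called (5.33% higher at day 14), and 2 of 10 after delayed repair, where 6.41% were called (3.28% higher). Groups that did not overlap were 1 and 2 members, compared with 2.25% and 1.56% of all genes tested. No semaphorin was called by edgeR's test with this minimum, and Sema4d, the main macrophage ligand, had differences of 0.23 ± 0.20 and 0.25 ± 0.23.

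Some of the partners also changed. After immediate repair 9 of 38 tested were called, 4 higher and 5 lower at day 14, and after delayed repair 7 of 38, 4 higher and 3 lower, where 11.3% and 6.41% of all genes tested were called. Mical1, an oxidase that binds plexins and acts on actin, was higher by 1.11 ± 0.26 and 1.34 ± 0.22 on the log2 scale, and Cfl1, the actin-severing protein cofilin, differed by -0.33 ± 0.08 and -0.34 ± 0.09 (SE). Rap1b was lower in both groups (-0.43 ± 0.08 and -0.40 ± 0.09). Rock2, a kinase downstream of RhoA, was higher after immediate repair (0.51 ± 0.10), and Ranbp9 and Ranbp10, which are scaffold proteins, after delayed repair (2.11 ± 0.23 and 0.70 ± 0.17, SE). Vegfa, a neuropilin ligand outside the family, was called after immediate repair (-0.72 ± 0.14, SE, edgeR adjusted p = 0.00232), and its interaction of repair and day had an unadjusted p = 0.00864 (edgeR adjusted p = 1). In these macrophage libraries the medians of the neutrophil marker sums went from 36.8 to 12.9 CPM after immediate and from 33.8 to 7.81 CPM after delayed repair, and those of the fibroblast sums from 18.1 to 72.6 CPM and from 14.2 to 61 CPM. Medians of the endothelial sums went from 27 to 16.1 CPM after immediate and from 42.7 to 15.2 CPM after delayed repair. Those of the dendritic cell sums went from 54.7 to 89.6 CPM and from 48.4 to 69 CPM. Single genes of these lists, endothelial and dendritic, went both ways. In the first, Pecam1 went from 33.2 ± 12.6 to 12.1 ± 4.05 CPM over both repair groups while Vwf went from 2.08 ± 1.78 to 3.25 ± 1.3 CPM, and in the second Itgax went from 10.8 ± 7.64 to 56.2 ± 26.7 CPM and Ccr7 from 25.6 ± 21.8 to 10.8 ± 13.1 CPM (SD, n = 17 and 15). The part of these shifts in the changes was not tested.

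In the SC fraction 5 of 22 members were called between days after immediate repair, compared with 3.81% of all genes tested. Plxnd1, Sema4c, Plxnc1 and Sema7a were lower at day 14 (3.1% of all genes tested) and Sema4f was higher (0.719%). Plxnd1 was at 76.5, 119 and 247 CPM at day 5 and 16.4, 41.3 and 76.5 CPM at day 14 (-1.43 ± 0.32, SE, edgeR adjusted p = 0.0206). Sema7a and its receptor Plxnc1 differed by -1.76 and -1.01 on the log2 scale, going from medians of 212 and 362 CPM to 68.2 and 209.9 CPM (edgeR adjusted p = 0.036 and 0.0295). Sema4c was at 29.6, 53.3 and 114 and then 8.42, 22.7 and 36.3 CPM (edgeR adjusted p = 0.0269). Sema4f was at 0.231, 15 and 25.3 CPM at day 5 and 28.7, 58.8 and 175 CPM at day 14, with no overlap, which held for 1.38% of all genes tested (2.41 ± 0.59, SE, edgeR adjusted p = 0.0318).

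These counts leaned on single libraries. Without day 5 replicates 2, 3 or 4 the number called was 1, 2 and 3, and without day 14 replicates 2, 4, 7 or 8 it was 3, 3, 2 and 1. Plxnd1 was called in every refit. Without the day 14 library rich in neutrophil markers (replicate 3, summed level 14775 CPM) all 5 were called. Dendritic cell markers in the same groups summed to 7885 to 24592 (median 11337) CPM at day 5 and 2999 to 12590.0 (median 6406) CPM at day 14, and fibroblast markers to 219 to 7322 (median 1483) and 723 to 9833 (median 4235) CPM. Medians of the macrophage marker sums were 899 and 1500.4 CPM and of the mural cell sums 23.6 and 39.8 CPM, and the part of these shifts in the differences was not tested.

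After delayed repair 1 of 21 members was called in the SC fraction, compared with 8.09% of all genes tested, 4.75% being lower at day 14. It was Plxnd1, at 47.6, 82.3 and 247 CPM at day 5 and 32.8, 46.5 and 62.8 CPM at day 14 (-1.11 ± 0.28, SE, edgeR adjusted p = 0.0271). No member was called without day 14 replicates 2 or 6, and 2 were called without day 5 replicate 8. The Plxnd1 call was also lost without day 14 replicate 4 (edgeR adjusted p = 0.0541) and in limma-voom, where the log2 difference was -0.65 (adjusted p = 0.0851). Without the libraries with over 4000 CPM of macrophage markers (day 5 replicates 7 and 9 and day 14 replicate 4) none was called, with Plxnd1 at -1.13 on the log2 scale. Sema3b, which did not pass the threshold, was at 0, 11 and 47.9 and then 40.1, 101 and 141 CPM (2.49 ± 0.89, SE, edgeR adjusted p = 0.0871), and Schwann cell markers summed to 4.98 to 317 (median 84.1) and then 241 to 1680.3 (median 1112) CPM. Fibroblast markers in these groups summed to 15.3 to 2936 (median 291) and then 1040.0 to 12804 (median 2951) CPM. Dendritic cell markers summed to 7624 to 16233 (median 9288) and then 3066 to 10298 (median 6119) CPM. Medians of the macrophage marker sums were 2958 and 1396 CPM and of the mural cell sums 13.5 and 47.3 CPM, and the part of these shifts was not tested. Of the 47 partners tested after delayed repair, 7 were called, 5 of them higher at day 14. Of all 9961 genes tested 806 were called (8.09%), 473 of them lower at day 14. The called partners included Ranbp9 (1.74 ± 0.27), Itga1, which pairs with the Sema7a receptor integrin beta 1 (1.78 ± 0.46), L1cam (1.49 ± 0.39) and Rnd3 (1.29 ± 0.34) with higher and Rhoa (-0.68 ± 0.13, SE) with lower levels. After immediate repair edgeR called 0 of 48 partners, compared with 3.81% of all genes tested. An unadjusted p under 0.05 was found for 9 of the 48 (18.8%), compared with 18.6% of all genes tested.

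**Figure D5:**
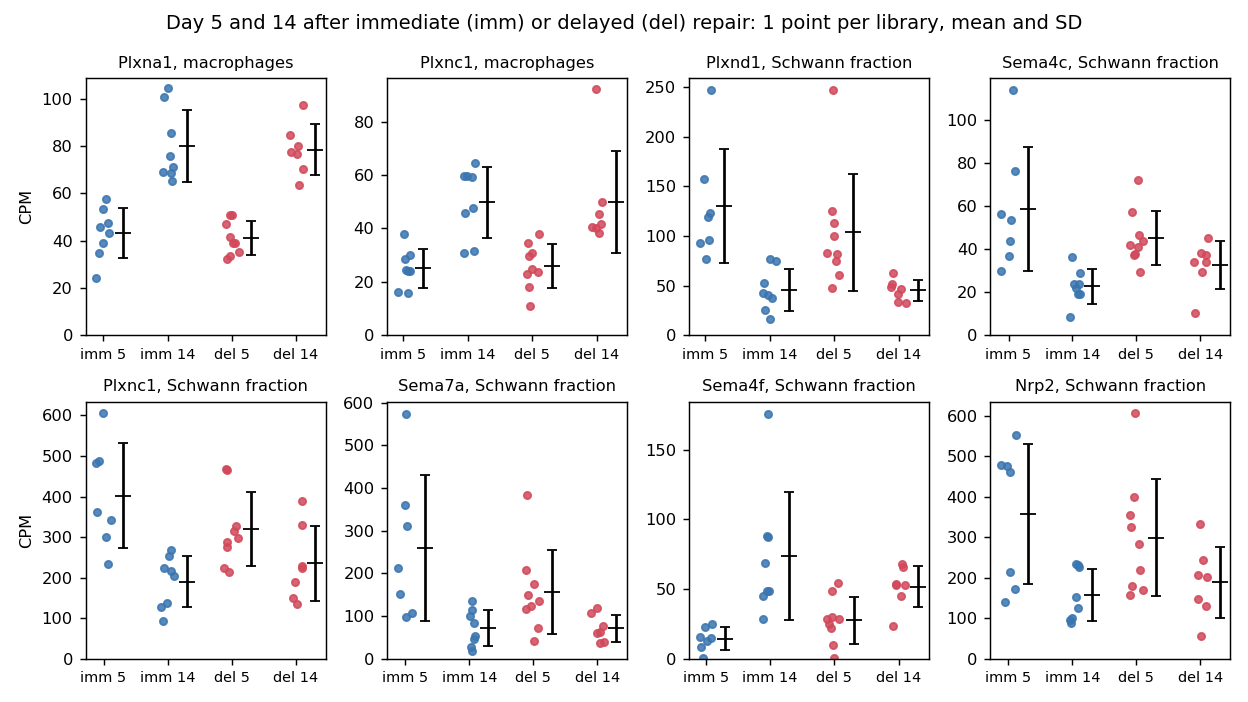
CPM in each macrophage or SC fraction library at day 5 and 14 after immediate (blue, n = 8 and 8 for macrophages, 7 and 8 for the SC fraction) and delayed repair (red, n = 9 and 7), with mean and SD in black. Plxna1 and Plxnc1 are higher at day 14 in macrophages of both groups, and Nrp2 is shown as a member that was not called.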

How the data were processed

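Estimated counts per gene for 23361 genes were deposited by the authors, 1 column for each of 79 libraries. The authors trimmed reads with cutadapt 1.8, removed ribosomal reads from the stump libraries, aligned to mm10 with TopHat2 2.1.1 and used Cufflinks 2.2.1, but the program that wrote the counts is not given in the sources used here. Sorted cell libraries were made from amplified cDNA (SMART-Seq v4) without strand information, and stump libraries from ribosome-depleted RNA with strand information. Between 0.951% and 1.18% of values were not whole and all were rounded. No pair of the 3081 library pairs was identical.

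A gene entered a comparison where 6 or more of its libraries reached 5 CPM, and was tested with edgeR 4.0.16 (R 4.3.3, quasi-likelihood test, TMM scaling), with Benjamini-Hochberg adjustment over all genes tested and calls at adjusted p under 0.05. Printed CPM used 1 TMM scaling over the sorted libraries and 1 over the stump libraries. Single-gene fold changes are log2 with SE. DESeq2 1.42.0, limma 3.58.1 (voom with sample weights), other scalings and filters, sex, the replicate block and the removal of each library were the alternatives. Each library was removed only in the comparisons of repair and of days, and sex was not a covariate between cell types. The tests were tried on simulated counts. Macrophages and the SC fraction of an animal share their number, so these samples are paired by animal. Correlations of their deviations were from 0.00393 to 0.288 at day 5 and 0.0569 to 0.248 at day 14. The main test of cell type had the repair group as a covariate and did not use this pairing. The animal block was an alternative. Separate animals are the replicates of every other comparison.

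Members, partner lists and marker lists were chosen with earlier results of these data known. Values are given by a fixed rule: up to 8 called members with the smallest p for repair, up to 6 for day, the 5 with the largest difference each way between cell types, the 3 highest ligands and receptors per length, the 2 smallest p where none was called, and up to 5 called partners with the smallest p. Other values that are named were picked after they were seen. Floors cover counting error only, whereas SDs and edgeR SEs include the variation between libraries. In libraries without strand information, reads of Plxna1, Plxna4, Plxnb1 and their antisense genes cannot be told apart. Exons of Plxnc1 overlap Gm48718 and those of Nrp1 overlap Mir1903 on the same strand, which strand information does not resolve.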

Additional observations from a re-analysis of the deposited data

Results flagged for a closer look

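In 190 sets of libraries (a member in a group), 11 held a library apart from the others of its group by Dixon's criterion on log2(CPM + 1). Sets without spread, or with no library at 5 CPM, were among the 190 but could not be among the 11. Chance alone gives about 1 in 20 of the sets that could be flagged. These were not counted, so 11 of 190 cannot be set against that share. In the SC fraction, immediate day 5 replicate 3 was lowest for Sema4d at 0.553 CPM (next library 32.9) and for Sema4f at 0.231 CPM (next 8.67). Delayed day 5 replicate 4, the library with no Sox10 count, was lowest for Sema4f at 0.307 CPM (next 9.72). Immediate day 14 replicate 5 was lowest for Plxnb2 at 4.43 CPM (next 49.5), for Sema4d at 7.74 CPM (next 49.1) and for Sema4c at 8.42 CPM (next 19.0). Delayed day 14 replicate 4 was lowest for Sema4c at 10.03 CPM (next 29.2) and delayed day 14 replicate 1 for Sema4f at 23.4 CPM (next 45.0). In macrophages, delayed day 14 replicate 4 was highest for Plxnc1 at 92.1 CPM (next 49.8), delayed day 14 replicate 6 was highest for Plxna4 at 7.02 CPM (next 1.59), and immediate day 14 replicate 1 was lowest for Nrp1 at 89.4 CPM (next 185).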

How the results depend on the processing

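No named member changed direction under any alternative. In the stump 12 of the 16 called members were called in every refit. Nrp1 was lost without the filter, Nrp1, Plxnb1, Sema4c and Sema4f with the replicate number as a block (13 members called, compared with 16), and Sema4c also in limma-voom and without immediate replicate 1. Leaving out single libraries gave 15 to 17 calls. The 17 and 22 calls between the SC fraction and macrophages were kept in every refit that tested them, also with the animal as a block. Plxnb1 at day 5 was not tested under edgeR's filterByExpr. These calls had at most 8 refits per member, without removal of single libraries, compared with 24 in the stump. No alternative called a member for repair in sorted cells or for an interaction. The cause of the changes below was not tested.

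Numbers of the repair groups and days pair no animals. The replicate block is therefore given only in this section. Between days after delayed repair it raised the macrophage calls from 2 to 4 and lowered those in the SC fraction from 1 to 0. After immediate repair Sema4f lost its call in the SC fraction (4 calls, compared with 5). Same-numbered macrophage libraries of both repair groups nevertheless deviated together, with median correlations of 0.26 at day 5 and 0.255 at day 14. Of these pairs 7 of 8 and 6 of 7 were over 0.1. Same-animal pairs of both cell types had medians of 0.126 and 0.135. Other comparisons of repair or day had medians from -0.0534 (stump) to 0.111. The main fits did not model this, and its source was not tested.

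Between days in macrophages limma-voom called 3 members after immediate repair (2 higher, 1 lower), and 3 were called in each repair group without the filter, compared with 2. Between days in the SC fraction after immediate repair, library size scaling gave 3 calls and leaving out single libraries 1 to 6, compared with 5. Sema7a also lost its call with sex as a covariate and in limma-voom (4 calls each). After delayed repair DESeq2 gave 3, sex as a covariate 2, limma-voom 2, and leaving out single libraries 0 to 2, compared with 1. The calls in limma-voom, and the 1 call without day 14 replicate 4, did not include Plxnd1. Leaving out libraries over 4000 CPM of macrophage markers gave 0. Leaving out libraries by marker sums, and each library in the comparisons of days, was chosen after seeing the data. Depth limits the low members, of which 6 had a median under 1 CPM in the SC fraction and 18 in macrophages.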
